A study of Mus musculus with 16 samples.

Results

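The genes described here are 41 genes that drive cells through mitosis or watch over it, followed in 4T1 tumors of the mouse before and after paclitaxel. They were chosen by name, for what they do, from the 17149 genes that 3 deposited expression tables share. They fall into 9 functional groups, which run from the cyclins that open mitosis to the proteins that split the cell, and all 41 were measured in all 16 libraries. None of them was lost to the filter on low values in any comparison. Mki67, Ccnb1 and Bub1b, the markers of the set, were above 0 in every library.

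Poly(A) RNA was sequenced from digested tumors of 4T1, a mouse mammary carcinoma line, in female wild-type BALB/c mice 6 weeks of age. The post_SC libraries (n = 3) came from paclitaxel-treated tumors in the mammary fat pad (the labels say subcutaneous), and the pre_SC libraries (n = 3) from untreated ones. The post_Liver libraries (n = 5) came from paclitaxel-treated tumors grown under the capsule of the liver, and the pre_Liver libraries (n = 5) from untreated ones. Paclitaxel was given into the peritoneum at 10 mg/kg, 5 injections a week for 2 weeks. The fat pad received 400000 cells and the liver 200000. Excised tissue was taken apart with enzymes and not sorted, so host cells are part of every library. The labels give 15 days of growth for all tumors, and do not say whether "pre" tumors were sampled before dosing or as PBS controls, so treatment and tumor age cannot be told apart. Whether each library is a separate mouse is not stated either, and the p-values may then reflect technical spread alone.

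Mitosis begins when the kinase Cdk1, bound to cyclin B, becomes active. The spindle then forms, driven by Aurora and Polo kinases and by kinesin motors, and each chromosome is tied to it by its kinetochore. The spindle checkpoint, made of Bub and Mad proteins and the kinase Ttk, blocks the anaphase-promoting complex until every kinetochore is attached. Paclitaxel binds microtubules and stabilises them, and is known to hold cells at that checkpoint. Most of these genes are transcribed late in the cell cycle, through CCAAT boxes bound by NF-Y and through CHR elements bound by the DREAM and B-Myb complexes, with the help of Foxm1. A tissue with more dividing cells therefore holds more of their RNA, and in bulk tumor RNA fewer such cells and less RNA per cell cannot be told apart.

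The promoters of 4 members with the words searched for below and of 1 without those words are shown. Such elements are the features by which the set is known to be switched on together. Each is the run of 250 bases before the annotated start, read 5′ to 3′ on the gene's strand, from RefSeq on GRCm38.p6. Capitals mark CCAAT boxes (CCAAT, or ATTGG on the other strand) and CHR words (TTTGAA or TTCGAA, or TTCAAA on the other strand).
Bub1b, chr2:118597961-118598210, plus strand: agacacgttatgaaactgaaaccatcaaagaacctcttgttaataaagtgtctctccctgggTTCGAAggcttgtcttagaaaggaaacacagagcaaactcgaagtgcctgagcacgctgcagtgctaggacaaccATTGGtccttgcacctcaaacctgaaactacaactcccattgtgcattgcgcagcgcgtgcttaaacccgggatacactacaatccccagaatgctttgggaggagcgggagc
Top2a, chr11:99024190-99024439, minus strand: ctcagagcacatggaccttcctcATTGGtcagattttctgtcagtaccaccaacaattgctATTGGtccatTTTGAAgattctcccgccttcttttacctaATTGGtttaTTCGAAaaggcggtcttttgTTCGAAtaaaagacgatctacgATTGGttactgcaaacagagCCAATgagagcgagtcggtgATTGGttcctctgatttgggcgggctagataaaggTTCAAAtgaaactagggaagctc
Plk1, chr7:122159185-122159434, plus strand: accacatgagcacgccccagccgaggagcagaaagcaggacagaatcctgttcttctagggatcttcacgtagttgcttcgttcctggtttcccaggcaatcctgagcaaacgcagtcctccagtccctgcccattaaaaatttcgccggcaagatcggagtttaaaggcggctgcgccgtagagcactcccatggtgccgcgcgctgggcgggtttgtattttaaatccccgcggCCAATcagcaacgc
Mki67, chr7:135716380-135716629, minus strand: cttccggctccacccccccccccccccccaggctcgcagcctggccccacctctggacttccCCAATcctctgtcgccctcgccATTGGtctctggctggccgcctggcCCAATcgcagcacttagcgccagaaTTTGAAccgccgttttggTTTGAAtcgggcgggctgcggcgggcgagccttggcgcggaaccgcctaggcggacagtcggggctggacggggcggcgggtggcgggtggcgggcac
Birc5, chr11:117848987-117849236, plus strand: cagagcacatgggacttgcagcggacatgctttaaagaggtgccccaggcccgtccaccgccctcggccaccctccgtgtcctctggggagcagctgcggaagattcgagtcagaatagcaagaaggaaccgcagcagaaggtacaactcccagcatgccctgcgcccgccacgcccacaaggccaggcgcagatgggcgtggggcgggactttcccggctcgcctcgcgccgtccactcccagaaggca
The Top2a promoter holds the densest run of them, while Birc5 holds none of these words in the printed stretch or in the 50 bases after its start. A second CHR word of Bub1b, and the CHR word of Plk1, lie in those 50 bases and are not printed.

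RefSeq windows of 300 bases, 250 before and 50 after the start, were found for 35 of the 41 genes. Incenp, Aurkb, Kif20a, Ccna2, Tpx2 and Foxm1 have no window. A CCAAT box was present in 26 of the 35 windows (74.3%), against 37.9% of 27025 windows of all genes. A CHR word was present in 28 of the 35 (80.0%), against 19.4% of all windows. Both stood together in 24 of the 35 (68.6%), against 7.70% of all windows. The words were searched on both strands, and the ends of a CCAAT box and a CHR word can share a base. Other forms of these elements were not searched. These genes are known for such elements, so the shares describe the set and are not a result of the tumors.

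**Figure D1:**
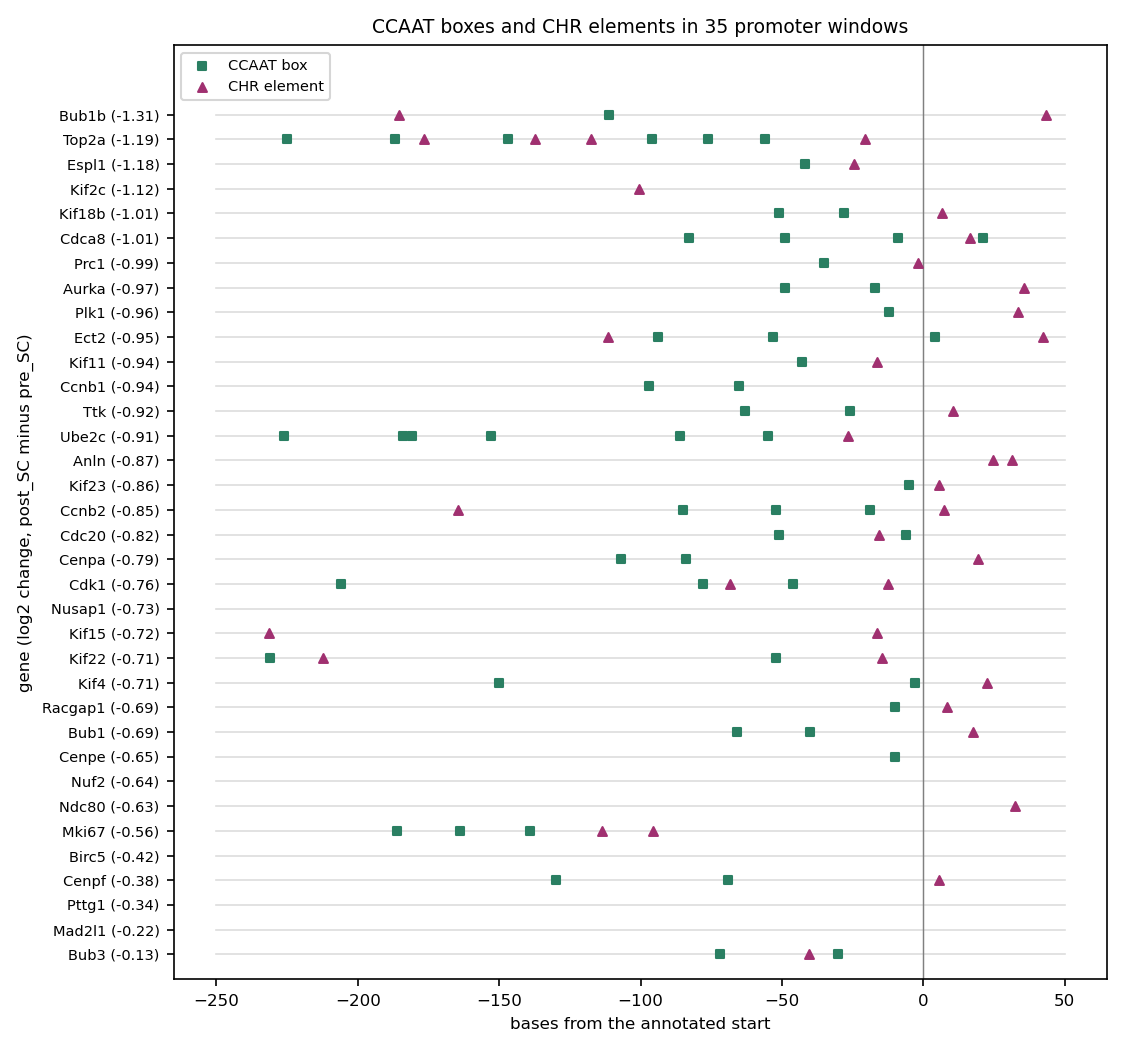
Position of each CCAAT box (squares) and CHR element (triangles) in bases from the annotated start, for 35 promoter windows, with genes ordered from the most negative log2 change after paclitaxel in fat pad tumors at the top. The 5 genes with no mark are Nusap1, Nuf2, Birc5, Pttg1 and Mad2l1.

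In fat pad tumors the mitosis genes were lower after paclitaxel. Of the 41, 23 fell at an adjusted p under 0.05 (limma, Benjamini-Hochberg over 13366 genes), and none rose. Among all genes tested, 4.29% were called lower and 2.68% higher. The log2 change of all 41 lay below 0, with a median of −0.85 against −0.03 over all genes, and it ranged from −1.31 in Bub1b to −0.13 in Bub3. In 31 of the 41 every post_SC library was below every pre_SC library, which was so for 18.7% of all genes. The summed level of the 41 genes was 1563, 1201 and 1108 TPM (a level per length of transcript, scaled to the same total in every library) in post_SC and 2303, 1994 and 2287 TPM in pre_SC. The 2 groups of sums do not overlap.

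The call of single genes in fat pad tumors rests on 3 libraries a group. None of the 41 was called without pre_SC 1, where 0.381% of all genes were called lower, or without pre_SC 3, where 0.458% were. In both fits 29 of the 41 had an unadjusted p under 0.05. Among all genes, 2878 of 13384 did without pre_SC 1 and 2521 of 13307 without pre_SC 3. Without pre_SC 2, 3 of the 41 were called (0.948% of all genes lower), and without post_SC 2, 13 were (4.02%). The changes of all 41 stayed below 0 in each of these fits. The carcinoma epithelium list (19 keratin, junction and related genes, none at 0 in any library) summed to 6027 to 7028 TPM in post_SC and 6159 to 6683 TPM in pre_SC. Measured against the mean of that list in the same library, all 41 were again below 0 with a median of −0.72 against 0.11 over all genes, and 2 of them, Bub1b and Kif18b, were called, where 1.60% of all genes were called lower.

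**Figure D2:**
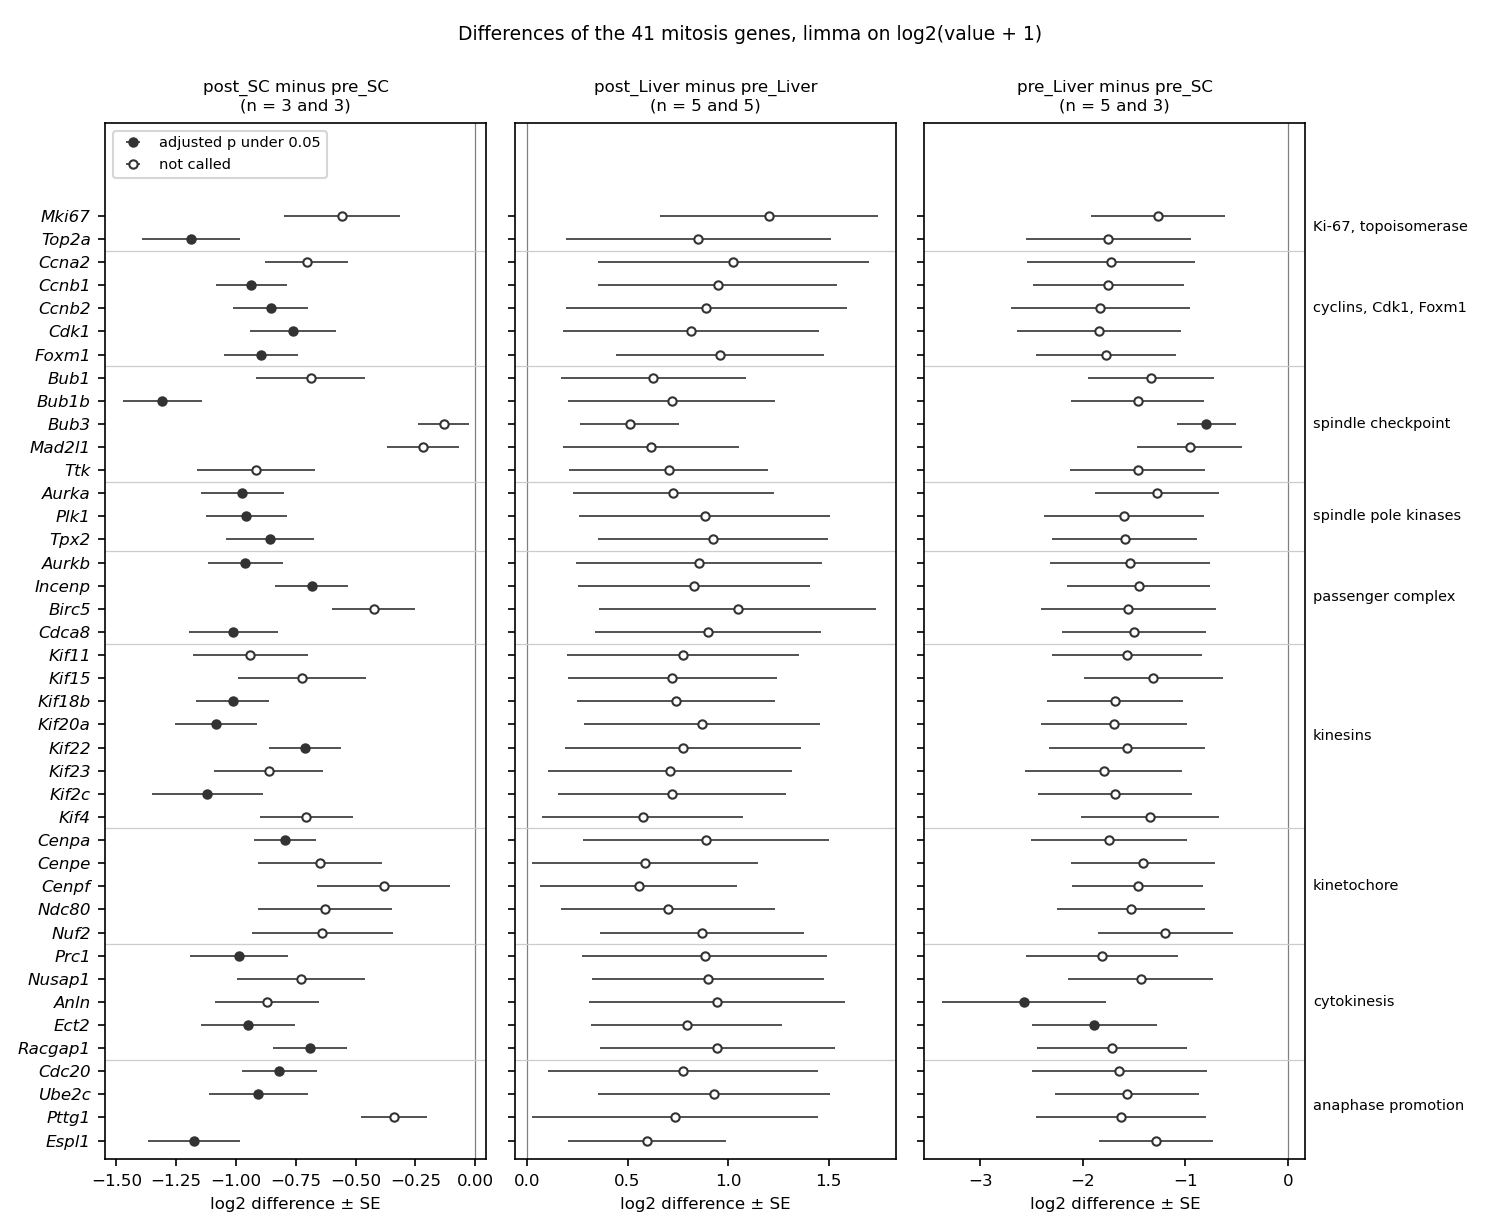
Log2 difference ± SE of each of the 41 genes, grouped by function, after paclitaxel in fat pad tumors (left) and in liver tumors (middle), and between untreated liver and untreated fat pad tumors (right), on log2(value + 1). Filled points have an adjusted p under 0.05, which was so for 23 genes on the left, none in the middle and 3 on the right.

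Of the 2 chromosome proteins, Top2a fell and Mki67 did not pass the test. Top2a, the enzyme that untangles sister DNA (chr11:98992943-99024189, GENCODE on GRCm38, as are the positions that follow), stood at 74.0, 54.7 and 46.4 TPM in post_SC and at 147, 106 and 147 TPM in pre_SC. All treated libraries were below all untreated ones, and the log2 change was −1.19 ± 0.20 (SE; limma adjusted p = 0.0221). Mki67, which encodes Ki-67, the coat of mitotic chromosomes used as a marker of dividing cells (chr7:135689784-135716361), stood at 32.5, 27.9 and 26.7 TPM in post_SC and at 59.5, 29.6 and 45.2 TPM in pre_SC. The untreated library with the lowest level lay within the treated range, and the change was −0.56 ± 0.24 (SE; limma adjusted p = 0.188).

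Of the 5 genes for cyclins, Cdk1 and their transcription factor, 4 fell. Ccnb1, the cyclin B1 that starts mitosis (chr13:100778650-100786570), stood at 28.7, 25.3 and 24.9 TPM in post_SC and at 54.7, 42.8 and 56.9 TPM in pre_SC, a log2 change of −0.94 ± 0.15 (SE; limma adjusted p = 0.0182). The treated libraries were close together and all below the untreated ones. Ccnb2, Cdk1 and Foxm1, the factor that activates late cell cycle genes, fell by 0.85, 0.76 and 0.89 on the log2 scale. Ccna2, cyclin A2, had a change of −0.70 and did not pass (limma adjusted p = 0.0545).

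In the spindle checkpoint, 1 of 5 genes fell, and the members of this group differed most from each other. Bub1b, which encodes BubR1, the checkpoint protein that holds Cdc20 inactive (chr2:118598211-118641591), stood at 12.8, 10.3 and 8.92 TPM in post_SC and at 29.8, 26.5 and 26.7 TPM in pre_SC. Its change of −1.31 ± 0.17 (SE; limma adjusted p = 0.0115) was the most negative of the 41. Bub3, the adaptor that brings Bub1 and BubR1 to kinetochores (chr7:131560222-131571895), stood at 82.3, 72.2 and 73.3 TPM in post_SC and at 81.3, 84.8 and 83.3 TPM in pre_SC, with overlapping groups and a change of −0.13 ± 0.11 (SE; limma adjusted p = 0.449). Mad2l1, which encodes Mad2, had a change of −0.22, while Bub1 and the checkpoint kinase Ttk had changes of −0.69 and −0.92, none of them called.

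All 3 genes of the spindle pole kinases fell. Plk1, the Polo kinase that matures centrosomes (chr7:122159439-122169873), stood at 32.4, 26.9 and 22.0 TPM in post_SC and at 52.3, 59.1 and 47.8 TPM in pre_SC, a log2 change of −0.96 ± 0.17 (SE; limma adjusted p = 0.0241). The groups do not overlap. Aurka, Aurora kinase A, and its activator Tpx2 fell by 0.97 and 0.86 on the log2 scale.

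In the chromosomal passenger complex, which corrects faulty attachments at centromeres, 3 of 4 genes fell. Aurkb, its kinase Aurora B (chr11:69045647-69051664), stood at 26.7, 24.4 and 19.0 TPM in post_SC and at 50.3, 44.2 and 43.7 TPM in pre_SC, a log2 change of −0.96 ± 0.16 (SE; limma adjusted p = 0.0199). Its groups do not overlap. Cdca8 (borealin) and Incenp, the scaffold, fell by 1.01 and 0.68 on the log2 scale. Birc5 (survivin), whose promoter printed above holds none of the words searched, had a change of −0.42 and did not pass (limma adjusted p = 0.167).

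Of 8 kinesin motors, 4 fell. Kif18b, a kinesin that acts at the plus ends of astral microtubules (chr11:102905529-102925124), stood at 10.3, 8.18 and 8.63 TPM in post_SC and at 19.1, 18.1 and 20.3 TPM in pre_SC, a log2 change of −1.01 ± 0.15 (SE; limma adjusted p = 0.0168). Both groups were tight and lay apart. Kif2c, Kif20a and Kif22 fell by 1.12, 1.08 and 0.71 on the log2 scale. Kif11, the motor that pushes spindle poles apart, had a change of −0.94 and missed the threshold (limma adjusted p = 0.0605). Pseudogenes of Kif22, Kif4, Ccnb1 and Ccnb2 are annotated in the genome, and reads could have been split with them.

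Of 5 kinetochore genes, 1 fell. Cenpa, the histone H3 variant that marks centromeres (chr5:30666777-30674830), stood at 79.0, 62.6 and 64.1 TPM in post_SC and at 129, 113 and 116 TPM in pre_SC, a log2 change of −0.79 ± 0.13 (SE; limma adjusted p = 0.0198). Its groups do not overlap. Cenpe, Cenpf, Ndc80 and Nuf2 had changes between −0.65 and −0.38, and in each of them the treated and untreated libraries overlapped.

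Of 5 genes of the central spindle and cytokinesis, 3 fell. Ect2, the exchange factor that turns on RhoA at the cleavage furrow (chr3:27097222-27153878), stood at 17.9, 13.3 and 12.6 TPM in post_SC and at 30.5, 23.5 and 33.5 TPM in pre_SC, a log2 change of −0.95 ± 0.19 (SE; limma adjusted p = 0.0347). Prc1, which bundles the midzone microtubules, and Racgap1 fell by 0.99 and 0.69 on the log2 scale. Anln (anillin, a scaffold of the contractile ring) had a change of −0.87 and missed the threshold (limma adjusted p = 0.0562).

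Of 4 genes that bring about anaphase, 3 fell. Espl1, the separase that cleaves cohesin (chr15:102296266-102324357), was the least abundant of the 41 and stood at 4.68, 3.45 and 3.01 TPM in post_SC and at 9.97, 9.23 and 9.41 TPM in pre_SC. Its change was −1.18 ± 0.19 (SE; limma adjusted p = 0.0199), with no overlap. Cdc20 and Ube2c, the activator and the ubiquitin carrier of the anaphase-promoting complex, fell by 0.82 and 0.91 on the log2 scale. Pttg1 (securin), the inhibitor of separase, had a change of −0.34 and did not pass (limma adjusted p = 0.164).

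**Figure D3:**
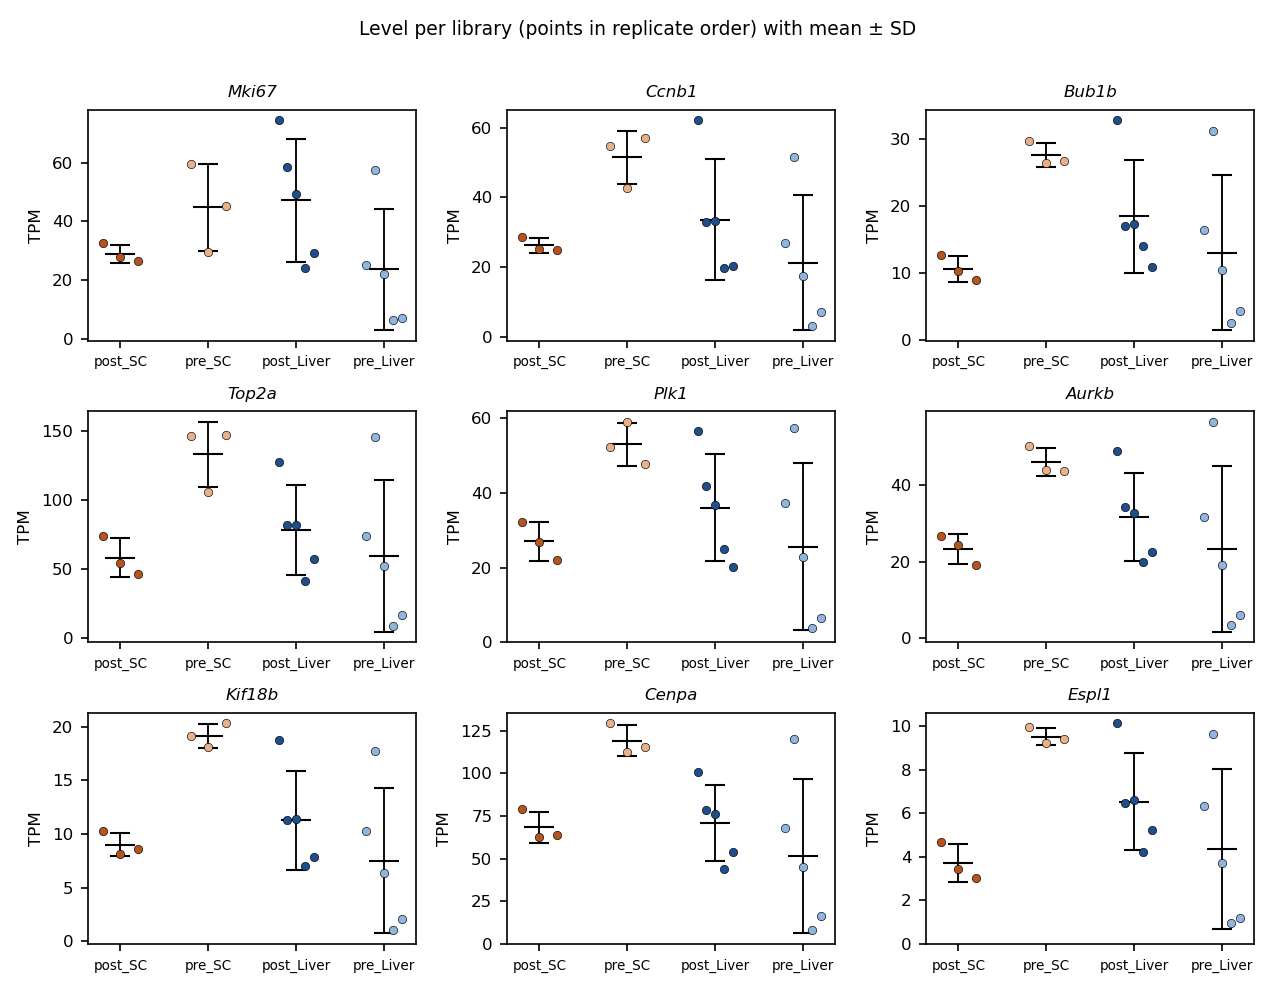
Level in TPM of 9 of the genes in each library (points, in replicate order), with mean ± SD, for post_SC, pre_SC, post_Liver and pre_Liver. In fat pad tumors the treated points lie below the untreated ones for every gene but Mki67, while in liver tumors the treated and untreated points overlap for all 9. Apart from the markers Mki67, Ccnb1 and Bub1b, the genes were picked for the smallest p of their group in fat pad tumors. Their separation there thus follows from that choice, and 31 of all 41 genes were separated in this way.

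Some genes also differed between treated and untreated fat pad tumors in their share of the summed TPM of the 41. The shares given here were chosen for display after their values were seen and were not tested. Bub1b made up 0.82%, 0.86% and 0.81% of the sum in post_SC and 1.29%, 1.33% and 1.17% in pre_SC. Bub3 made up 5.27%, 6.02% and 6.61% in post_SC and 3.53%, 4.25% and 3.64% in pre_SC. Of the anaphase pair, Espl1 made up 0.30%, 0.29% and 0.27% in post_SC and 0.43%, 0.46% and 0.41% in pre_SC, while its inhibitor Pttg1 made up 6.73%, 8.25% and 6.94% in post_SC and 4.98%, 5.83% and 5.36% in pre_SC. In each of these 4 genes the shares of treated and untreated libraries do not overlap. Bub1b and Bub3 have the most and least negative changes of the 41. Those of Espl1 and Pttg1, −1.18 and −0.34, lie on either side of the median of −0.85. The shares of all 4 genes restate these changes and are no separate evidence. The changes of the genes are also given here by the words in their promoters, with no test. Of the 24 windows with both a CCAAT box and a CHR word, 16 belong to genes that fell (median log2 change −0.88). Of the 6 with 1 of them, 2 do (median −0.80), and of the 5 with neither, none does (median −0.42). Of the genes with no window, Incenp, Aurkb, Kif20a, Tpx2 and Foxm1 fell and Ccna2 did not, so these counts leave out genes that fell. Among all genes tested, 4.29% were called lower. These counts are descriptions over few genes that share their libraries.

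Genes outside the set followed in part. Of all genes tested in fat pad tumors, 4.29% were called lower and 2.68% higher, with a median log2 change of −0.03. Of 80 other mitosis genes, 14 fell and none rose (median log2 change −0.59), among them the kinesin Kifc1 at −0.98 and Iqgap3 at −1.10. Of 40 DNA replication genes, 6 fell and none rose (median −0.44), among them Pold1, a catalytic subunit of DNA polymerase delta, at −0.83 and the helicase subunit Mcm5 at −0.78. The mean log2(TPM + 1) of the 41 mitosis genes minus that of the replication genes was 0.02, 0.02 and 0.03 in post_SC and 0.43, 0.29 and 0.51 in pre_SC. Treated libraries thus had a smaller lead of mitosis over replication genes than any untreated one. Of the lists of host cells, 3 of 6 endothelial genes were called higher in post_SC, with summed levels of 191 to 235 TPM in post_SC and 77.8 to 117 TPM in pre_SC, and their part in the result was not tested.

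In liver tumors no mitosis gene passed the test after paclitaxel, and the levels of treated and untreated tumors overlapped. None of the 41 was called in either direction by limma over 13008 genes. None of them had an unadjusted p under 0.05, while 4123 of all genes did. Of all genes tested, 2.24% were called higher and 1.41% lower. The 41 changes lay between 0.51 (Bub3) and 1.20 (Mki67) with a median of 0.82, and the median of all genes was 0.37. No gene of the 41 had all post_Liver libraries above all pre_Liver ones, which was so for 5.16% of all genes. The summed level was 2159, 1620, 1599, 861 and 992 TPM in post_Liver and 1363, 2295, 909, 198 and 311 TPM in pre_Liver. The highest untreated tumor, pre_Liver 2, was above every treated one, and the lowest, pre_Liver 4 and 5, were below every other library of the series.

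The liver differences varied with the untreated libraries used. Against pre_Liver 4 and 5 alone, the libraries in which the 41 genes summed lowest, all 41 were called higher (median log2 difference 2.20, against 0.69 over all genes), and so were 39.0% of all genes tested. Against pre_Liver 1 to 3 alone none of the 41 was called, 12 lay above 0 and 29 below it (median −0.05, against 0.13 over all genes), and 0.450% of all genes were called higher. These sets are those that the deposited table of untreated tumors adjusted in opposite directions. Without pre_Liver 2, 2 of the 41, Mki67 and Bub3, were called higher, and 19.3% of all genes were.

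**Figure D4:**
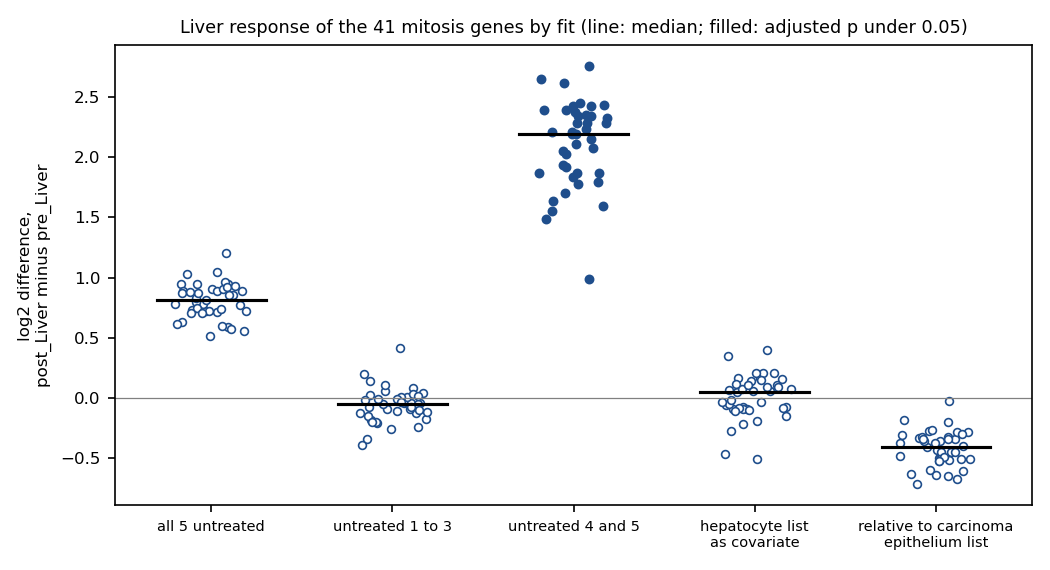
Log2 difference of each of the 41 genes between post_Liver and pre_Liver tumors (points; filled at adjusted p under 0.05) with the median (line), for all 5 untreated libraries, for untreated 1 to 3 or 4 and 5 alone, with the hepatocyte list as a covariate, and relative to the carcinoma epithelium list. The medians are 0.82, −0.05, 2.20, 0.05 and −0.42.

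For Mki67 and Foxm1, the liver values show this spread. Levels here and below are TPM, while the liver differences were fitted on FPKM. On TPM the median of the 41 was 0.88 and none was called (2.20% of all genes higher). There 1 of the 41 had an unadjusted p under 0.05, as did 4366 of all 13725 genes. Mki67 stood at 74.5, 58.6, 49.4, 24.1 and 29.2 TPM in post_Liver and at 25.2, 57.4, 22.0, 6.53 and 7.21 TPM in pre_Liver. Its fitted difference was 1.20 ± 0.54 (SE, log2, limma adjusted p = 0.158). Foxm1 (chr6:128362967-128376146) stood at 34.9, 20.2, 19.8, 14.9 and 18.7 TPM in post_Liver and at 17.4, 31.7, 11.3, 2.39 and 3.98 TPM in pre_Liver, a difference of 0.96 ± 0.52 (SE; limma adjusted p = 0.208). In both genes pre_Liver 2 lay inside the treated range and pre_Liver 4 and 5 below it.

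Ccnb1 stood at 62.1, 32.9, 33.4, 19.7 and 20.3 TPM in post_Liver and at 27.0, 51.6, 17.6, 3.21 and 7.17 TPM in pre_Liver. Its fitted difference was 0.95 ± 0.60 (SE, log2, limma adjusted p = 0.258). Bub1b stood at 32.9, 17.1, 17.4, 14.1 and 11.0 TPM in post_Liver and at 16.4, 31.3, 10.5, 2.59 and 4.42 TPM in pre_Liver, a difference of 0.72 ± 0.51 (SE; limma adjusted p = 0.305). Both had their highest treated value in post_Liver 1. Bub3 varied least, with 84.3, 72.7, 73.8, 57.1 and 61.9 TPM in post_Liver and 58.8, 79.6, 45.2, 34.5 and 35.0 TPM in pre_Liver, a difference of 0.51 ± 0.24 (SE; limma adjusted p = 0.172). Over the 5 untreated liver tumors the highest level of Bub3 was 2.31 times the lowest, the smallest such ratio of the 41, while for Ccnb2 it was 20.7, the largest.

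Among the genes of spindle poles and the passenger complex, Tpx2 (chr2:152847964-152895321) stood at 57.6, 37.4, 37.5, 21.2 and 23.4 TPM in post_Liver and at 31.6, 52.1, 20.5, 4.69 and 6.24 TPM in pre_Liver. Its fitted difference was 0.92 ± 0.57 (SE, log2, limma adjusted p = 0.253). Cdca8 (chr4:124918465-124939311) stood at 50.5, 38.7, 39.2, 25.9 and 21.6 TPM in post_Liver and at 33.1, 53.7, 20.0, 4.37 and 7.43 TPM in pre_Liver, a difference of 0.90 ± 0.56 (SE; limma adjusted p = 0.256). In both genes pre_Liver 2 was above at least 4 of the 5 treated tumors. Kif18b stood at 18.8, 11.3, 11.4, 7.02 and 7.83 TPM in post_Liver and at 10.3, 17.7, 6.37, 1.09 and 2.12 TPM in pre_Liver, a difference of 0.74 ± 0.49 (SE; limma adjusted p = 0.278). Nuf2, a subunit of the Ndc80 complex that grips microtubules (chr1:169497934-169531464), stood at 25.1, 20.6, 21.6, 10.7 and 13.4 TPM in post_Liver and at 14.7, 27.4, 10.3, 2.51 and 3.17 TPM in pre_Liver, a difference of 0.87 ± 0.51 (SE; limma adjusted p = 0.233). Treated and untreated libraries overlapped in these genes too.

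Of the genes that end mitosis, Ect2 stood at 26.0, 13.8, 15.1, 8.27 and 12.5 TPM in post_Liver and at 11.4, 22.8, 8.06, 2.16 and 3.26 TPM in pre_Liver. Its fitted difference was 0.79 ± 0.47 (SE, log2, limma adjusted p = 0.242). Ube2c (chr2:164769898-164778822), the most abundant of the 41 over the 16 libraries, stood at 210.0, 157, 158, 111 and 104 TPM in post_Liver and at 155, 211, 88.7, 20.9 and 35.2 TPM in pre_Liver, a difference of 0.93 ± 0.58 (SE; limma adjusted p = 0.255). The remaining genes had differences between 0.55 (Cenpf) and 1.05 (Birc5). None of 80 other mitosis genes and none of 40 replication genes was called, with medians of 0.64 and 0.68. Over all genes the median was 0.37, and 2.24% were called higher and 1.41% lower.

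The make-up of the liver libraries also varied. The hepatocyte list (20 genes such as Alb, serum albumin, none at 0 in liver) summed to 40151, 5113, 4282, 105167 and 40054 TPM in post_Liver and to 73229.9, 41225, 112664, 164699 and 171383 TPM in pre_Liver, with the highest values in pre_Liver 4 and 5. The carcinoma epithelium list (none at 0) summed to 4042, 5207, 4746, 1569 and 3522 TPM in post_Liver and to 2832, 3969, 1825, 894 and 1044 TPM in pre_Liver, with the lowest values in those same libraries. With the hepatocyte list as a covariate the median difference of the 41 was 0.05, and relative to the carcinoma epithelium list it was −0.42 with all 41 below 0 (−0.86 over all genes). No gene of the 41 was called in either fit. The neutrophil progenitor list (10 genes such as Elane, Mpo and Ltf, which encode granule proteins) was called higher in 10 of 10 genes. Its sums were 2390.2 to 7956 TPM in post_Liver and 99.9 to 721 TPM in pre_Liver. The mature neutrophil list (genes such as S100a8 and Csf3r) was called higher in 8 of 9 genes. Its sums were 2139 to 15798 TPM in post_Liver and 141 to 1046 TPM in pre_Liver. Of all genes tested, 2.24% were called higher. The part of either neutrophil list in the levels of the mitosis genes was not tested.

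**Figure D5:**
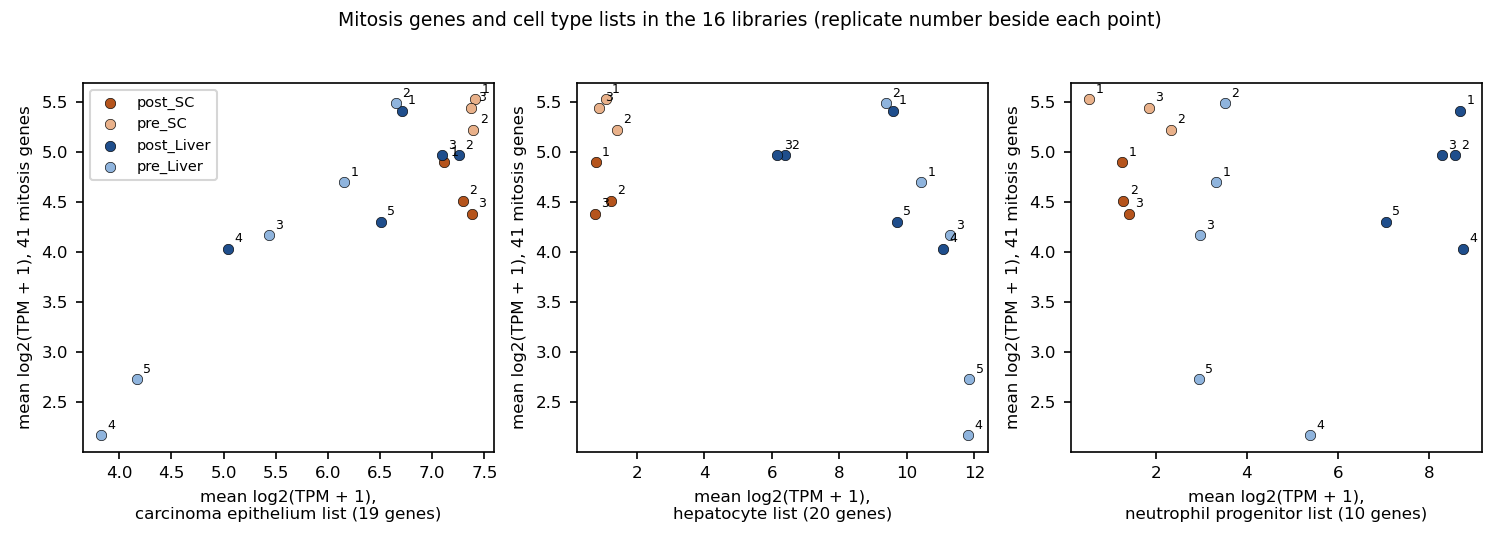
Mean log2(TPM + 1) of the 41 mitosis genes against that of the carcinoma epithelium, hepatocyte and neutrophil progenitor lists, 1 point a library with its replicate number. In the left panel pre_Liver 4 and 5 sit lowest on both axes and the post_SC points lie below the pre_SC ones at like carcinoma levels, in the middle panel pre_Liver 4 and 5 are highest on the hepatocyte axis, and in the right panel the post_Liver points are highest on the progenitor axis.

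Proportions between the genes also varied over the liver libraries, and the examples here were chosen after their values were seen and not tested. Mki67 was 58.2%, 71.7%, 60.4%, 58.4% and 50.7% of the level of Top2a in post_Liver and 33.9%, 39.4%, 42.1%, 74.0% and 43.2% in pre_Liver. In fat pad tumors it was 43.9%, 51.0% and 57.6% of Top2a in post_SC and 40.6%, 27.8% and 30.7% in pre_SC. At both sites the treated libraries had the higher ratio, save for pre_Liver 4, where all levels were low. Bub3 made up 17.4% and 11.3% of the summed TPM in pre_Liver 4 and 5 and at most 6.63% in any other library.

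Before treatment, 3 of the 41 mitosis genes, Anln, Ect2 and Bub3, were called lower in liver tumors than in fat pad tumors by limma over 13727 genes, and none was called higher. Of all genes tested, 33.5% were called lower and 15.4% higher, so the share of mitosis genes called was below the background. All 41 differences lay below 0, with a median of −1.57 against −0.52 over all genes. Anln (chr9:22332012-22389188) stood at 26.2, 48.4, 16.5, 2.67 and 4.65 TPM in pre_Liver and at 85.5, 60.1 and 99.2 TPM in pre_SC, which gave a difference of −2.58 ± 0.80 (SE, log2; limma adjusted p = 0.0307). All liver libraries were below all fat pad ones for this gene. For Ect2 the difference was −1.89 ± 0.61 (SE; limma adjusted p = 0.0346) and for Bub3 −0.80 ± 0.28 (SE; limma adjusted p = 0.0461). Mki67, Ccnb1 and Bub1b had differences of −1.27, −1.75 and −1.47 and were not called.

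The site difference varied with the libraries and with the level used as a base. Without pre_Liver 2 all 41 genes were called lower, and 52.1% of all genes were. With any 1 of pre_Liver 3, pre_Liver 5 or the 3 pre_SC libraries left out none of the 41 was called, where 6.43% to 19.2% of all genes were called lower. Without pre_Liver 4, 1 was called, against 19.3% of all genes. With pre_Liver 1 to 3 as the only liver libraries, the median difference was −0.61, against −0.31 over all genes. In that fit 2 of the 41, Anln and Ect2, were called lower, and 20.5% of all genes were. The carcinoma epithelium list was itself lower in pre_Liver in 16 of 19 genes, with sums of 894 to 3969 TPM in pre_Liver and 6159 to 6683 TPM in pre_SC. Relative to that list 40 of the 41 genes lay above 0 (median 0.59, against 1.65 over all genes), and 5 of the 41 were called higher, Aurka, Bub3, Espl1, Mad2l1 and Nuf2, against 73.0% of all genes, so the share of mitosis genes was below the background there too. The exception was Anln, at −0.41. In the deposited table of untreated tumors every one of the 41 genes carries a constant, from −61.2 to −2.74 TPM in pre_Liver 1 to 3 and pre_SC and of the opposite sign in pre_Liver 4 and 5. It was removed before the test, and the values as deposited gave 4 of the 41 called lower, against 38.4% of all genes.

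After treatment the sites are given side by side as values with no test, since their tables were normalized separately. The summed level of the 41 genes lay between 861 and 2159 TPM in post_Liver and between 1108 and 1563 TPM in post_SC. Bub1b stood at 11.0 to 32.9 TPM in post_Liver and at 8.92 to 12.8 TPM in post_SC, and Anln at 12.7 to 53.7 TPM in post_Liver and at 34.5 to 49.7 TPM in post_SC.

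Whether the response to paclitaxel differed between liver and fat pad tumors was tested as the interaction of site and treatment over all 16 libraries. All 41 differences between the responses, liver minus fat pad, lay above 0, with a median of 1.75 against 0.38 over all genes, and ranged from 0.65 (Bub3) to 2.11 (Bub1b). None passed the threshold in limma over 13868 genes, where 2.22% of all genes were called higher and 0.793% lower. An unadjusted p under 0.05 was found for 16 of the 41 and for 3478 of all 13868 genes. For Bub1b the difference was 2.11 ± 0.77 (SE; limma adjusted p = 0.122), for Ccnb1 1.96 ± 0.87 (SE; limma adjusted p = 0.182) and for Mki67 1.82 ± 0.79 (SE; limma adjusted p = 0.178). Without pre_Liver 2, 20 of the 41 were called higher, and 14.5% of all genes were. Relative to the carcinoma epithelium list none of the 41 was called, with a median of 0.35 (−1.02 over all genes) and 5 genes below 0.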

How the data were processed

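Per the submitters' processing notes, the tools included fastp and StringTie and the build was GRCm38 (mm10). Their roles and versions are not given in the sources used here. The authors deposited FPKM for the 10 liver libraries and TPM for the 6 fat pad libraries. They also deposited a table of the 8 untreated libraries, whose values are TPM plus a constant per gene. The constant was found by comparison with the other tables and removed, which restored the fat pad TPM within 5.07e-06. No file states its unit, so units were read from the values, and sequencing depth is unknown. Levels printed are TPM rescaled over 17149 shared genes. The liver response was tested on FPKM and the others on TPM. Tests used limma 3.58.1 in R 4.3.3 (eBayes with trend) on log2(value + 1), for genes with a mean of at least 1, with calls at a Benjamini-Hochberg adjusted p under 0.05, so changes of low genes are understated. Date-like names (22 and 24) were left out. Promoter windows are from RefSeq and gene positions from GENCODE, both on GRCm38. Alternatives changed the pseudocount, the filter, the scaling, the libraries and the terms of the fit.

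Members and lists were chosen with earlier results of these data known. Values per library are given for the 3 markers and, per functional group, for the gene with the smallest p in each response.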

Additional observations from a re-analysis of the deposited data

Results flagged for a closer look

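Foxm1 stood at 34.9 TPM in post_Liver 1, far from the other treated liver tumors, which lay between 14.9 and 20.2 TPM. The gap was large against the range of the group. Such a gap is reached by chance in about 1 in 20 groups, and each of the 41 genes and their sum was examined in both liver groups.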

How the results depend on the processing

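Directions over all 41 genes kept in fat pad tumors under every alternative run. The count of genes lower after paclitaxel there was 23, where 4.29% of all genes were called lower. It was 14 with no filter on low values (2.26% of all genes) and 2 relative to the carcinoma epithelium list (1.60%). When each library was left out it was 0 to 23 (0.381% to 4.02%). In liver tumors it was 0 higher (2.24% of all genes) and 41 against pre_Liver 4 and 5 alone (39.0%). When each library was left out it was 0 to 2 (0.629% to 19.3%). Between untreated sites it was 3 lower (33.5% of all genes) and 0 relative to the carcinoma epithelium list (0.466%). When each library was left out it was 0 to 41 (6.43% to 52.1%). It was 2 with median of ratios scaling (16.3%), with no filter (25.4%) and with the hepatocyte list left out (26.3%). For the interaction it was 0 higher (2.22% of all genes) and 0 to 20 when each library was left out (0.513% to 14.5%). The labels do not say that replicate numbers pair libraries. Same-numbered libraries had correlated deviations of −0.16 to 0.13 in fat pad tumors, over 0.1 in 1 of 3 pairs, and of −0.12 to 0.75 in liver tumors, over 0.1 in 3 of 5, where 2 of 5 correlated best with their own number. The numbers were therefore not taken as pairs. The closest pair of libraries was post_Liver 2 and 3 (r = 0.99 across genes). Averaging them, an alternative chosen after seeing the data, gave 0 in the liver response (0.889% of all genes higher) and 0 in the interaction (1.37%). With median of ratios scaling the median of the 41 in the liver response was 0.50, against 0.05 for all genes. With a replicate block 12 genes were lower in fat pad tumors (1.65% of all genes), 1, Mki67, was higher in liver tumors (18.7%; limma adjusted p = 0.0246), 1, Anln, was lower between untreated sites (14.2%), and 13 were higher in the interaction (7.38%).

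Relative to the carcinoma epithelium list the liver response turned negative for Mki67 (−0.028), Ccnb1 (−0.28), Bub1b (−0.51), Bub3 (−0.72), Foxm1 (−0.27), Nuf2 (−0.36), Ect2 (−0.44), Tpx2 (−0.31), Ube2c (−0.30), Cdca8 (−0.33) and Kif18b (−0.49). Against pre_Liver 1 to 3 alone it did so for Bub1b (−0.047), Ube2c (−0.014) and Kif18b (−0.012). Relative to that list the site difference turned positive for Mki67 (0.89), Ccnb1 (0.41), Bub1b (0.70), Bub3 (1.37) and Ect2 (0.27). The list itself moved in these comparisons, and the cause of other shifts was not tested. Depth is unknown, so no limit from counting error can be given.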

Other observations

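Genes that hold the cell cycle back or set its pace were measured as well. A list of 21 genes covered cyclin-dependent kinase inhibitors, D cyclins, the kinases Cdk2, Cdk4 and Cdk6, and related regulators. In fat pad tumors 20 of them were tested. Of these, 17 had changes below 0 and 2 were called. Of all 13366 genes tested there, 7039 had changes below 0 and 4.29% were called lower. Ccnd1 (cyclin D1) and Cdkn2d were called lower in post_SC than in pre_SC, by −0.74 and −0.70 on the log2 scale (limma adjusted p = 0.0318 and 0.0368). In liver tumors 19 of the 21 had differences above 0 and 1 was called. Of all 13008 genes tested there, 9931 had differences above 0 and 2.24% were called higher. Ccnd3, cyclin D3, was called higher in post_Liver than in pre_Liver by 1.22 ± 0.22 (SE; limma adjusted p = 0.0188). In the interaction of site and treatment, Ccnd3 and Cdkn2d of this list and E2f2, from a separate list of cell cycle transcription factors, were called higher. Their differences were 1.37, 2.13 and 1.79 on the log2 scale (limma adjusted p = 0.0280, 0.0413 and 0.0344). Of all genes tested in the interaction, 2.22% were called higher.

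Before treatment, 9672 of all 13727 genes tested had differences below 0 between liver and fat pad tumors, 33.5% were called lower and 15.4% higher. Of the 21 genes of this list, 17 had differences below 0, 10 were called lower and 1 higher. The 1 called higher, Cdkn2a, the locus of p16 and p19Arf, differed between pre_Liver and pre_SC by 1.24 ± 0.25 (SE; limma adjusted p = 0.00718), while Cdkn1b (p27), 1 of the 10 called lower, differed by −1.32 ± 0.29 (SE; limma adjusted p = 0.00968). Mcm10, a replication initiation factor, was called higher in pre_Liver by 0.56 ± 0.17 (SE; limma adjusted p = 0.0284), where 38 of the 40 replication genes had differences below 0.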
